A study of Tupaia belangeri with 15 samples.

Results

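CA10 and CA11 are secreted relatives of the carbonic anhydrases that lack enzyme activity and bind neurexins on their way to the cell surface. Neurexins are adhesion molecules of the presynaptic membrane, and neuroligins are their partners on the postsynaptic side. Across the synaptic cleft the pairs help to set which synapses form and how strongly they transmit, and in the retina such contacts join photoreceptors, bipolar cells (BCs), amacrine cells (ACs), horizontal cells (HCs) and retinal ganglion cells (RGCs). The genes described here were CA10, CA11, NRXN2, NRXN3, NLGN1, NLGN2 and NLGN3, that is 7 of the 64440 features with at least 1 UMI in the files (a UMI, or unique molecular identifier, counts 1 captured RNA molecule). They were chosen by gene name, with earlier results of these data known, and each was found under its plain symbol.

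Single-nucleus RNA sequencing had been carried out on 15 retinas of tree shrews (TSs), 5 labelled Infancy, 5 Mature and 5 Senile, with 1 retina per animal and no treatment or genetic change in any group. The senile animals had been bought from another institute than the infant and mature ones, so that stage and source cannot be told apart in any comparison with the senile retinas. The labels name no sex, and it was not modelled. The retinas gave 13429873 to 58734300 UMIs each.

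Nuclei were assigned to 9 classes with marker genes that did not include any of the 7 members. Of 119765 nuclei that passed the quality limits, 53077 were assigned, namely 18776 to BCs, 15392 to cones, 5724 to Müller cells, 4913 to RGCs, 4572 to ACs, 1330 to astrocytes, 906 to rods, 766 to HCs and 698 to microglia. Another 5516 nuclei that reached the score of several classes were left out as likely doublets, and the remainder stayed without a class. In each class its own marker list had the highest summed level. Classes were assigned by these same lists, so this order was fixed by the assignment and is no check of it. The median was 16630 CPM (the UMIs of a gene or list among every 1000000 UMIs of the class in 1 retina) for the BC list in BCs and 161.7 for that list in cones. Libraries shared between 4 and 30 cell barcodes in each of the 105 pairs, at most 0.4216% of the smaller library. A further split of the libraries came from the files, since the headers of 7 matrices named version 6.1.2 of Cell Ranger and those of 8 named version 7.0.1. The first had a median of 1461 to 3068 UMIs per barcode and the second 2268 to 5611, and both versions occurred in all stages.

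Levels are given in CPM, and a retina with under 10 nuclei in a class gave no level for it. They compare 1 gene between classes or retinas, and not 1 gene with another, since CPM was not corrected for gene length. The depth behind the members differed widely. Over all libraries CA10 had 593815 UMIs, CA11 42580, NRXN2 34409, NRXN3 3147271 and NLGN1 698149. NRXN3 alone took 0.673% of all UMIs and was the feature with rank 2. NLGN2 had 260 UMIs and NLGN3 had 221. With doublets left out, nuclei with a class held 60.1% of the UMIs of CA10, 47.7% of CA11, 49.6% of NRXN3 and 49.6% of NLGN1. The 61172 nuclei without a class stood at 1018 ± 276 CPM of CA10, 95.05 ± 16.6 of CA11 and 1499 ± 271 of NLGN1. The class orders below cover the assigned nuclei only. Antisense features that carry the name of a member held 7.80% as many UMIs as CA10 and 9.49% as many as NRXN3, and they were not added to the members.

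CA10 was at its highest in BCs, the interneurons that carry the photoreceptor signal to the inner retina. Its level there was 3699 ± 506 CPM (SD, n = 15), with a lowest retina of 3056, a median of 3622 and a highest of 4539. RGCs, whose axons form the optic nerve, followed with 1085 ± 196 CPM (n = 15) and a range of 810.2 to 1541. The lowest BC value thus lay above the highest RGC value. The mean difference in log2(CPM + 1) between BCs and the highest other class of the same retina was 1.78 ± 0.18 (SD), and BCs were higher in 15 of 15 retinas. No p-value is attached to the order of CA10, because the gene was put forward as a BC marker from these same retinas.

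The other classes were far lower in CA10. Its mean was 412 ± 123 CPM in ACs, 397 ± 136 in HCs, 384 ± 230 in microglia, 380 ± 142 in Müller cells, 337 ± 160 in astrocytes and 282 ± 117 in rods (n = 14). Cones had the lowest mean, 132 ± 84.7 CPM, and a range of 27.9 to 332. From ACs down to rods the neighbouring classes overlapped widely, and AC values exceeded HC values in 9 of 15 retinas.

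Free RNA from broken cells can leave UMIs of an abundant gene in every nucleus. Each value was therefore set beside the summed level of the 7 BC gate markers in the same class, both as a percent of the BC level in that retina. Among these 7, GRIK1 had 1535536 UMIs over all libraries and NETO1, the next, had 56713. The sum thus rests mostly on GRIK1, here and wherever the BC markers or the BC marker list appear below. In RGCs the median was 29.5% for CA10 and 3.16% for the BC markers. In ACs the medians were 10.6% and 1.21%, and in cones they were 2.92% and 0.931%. In all 8 other classes the median percent of CA10 was larger than that of the BC markers. Nuclei with many BC marker UMIs could not pass the gate of another class, which lowers the second value by construction, and the part of free RNA in the first was not tested.

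**Figure D1:**
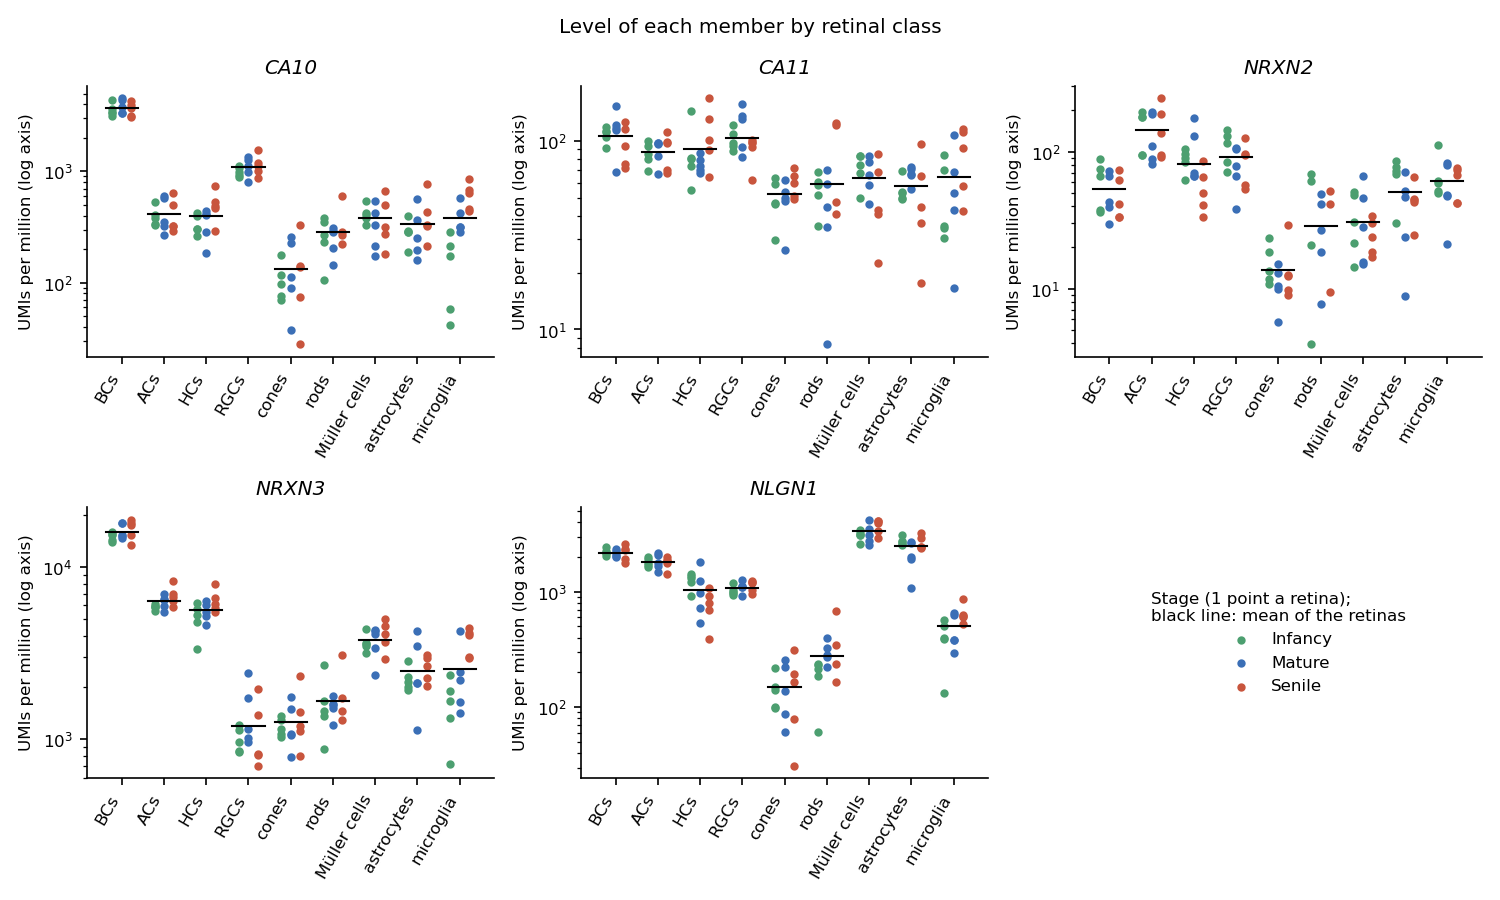
Levels in CPM (log axis) of the 5 members with more than 1000 UMIs in each of 9 retinal classes; each point is 1 retina, coloured by stage, and black lines are means (2 rod values of NRXN2 at 0 are not drawn). CA10 and NRXN3 sit highest in BCs, at means of 3699 and 15961, and NLGN1 sits highest in Müller cells, at a mean of 3333.

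CA11 varied least between classes among the 5 well-covered members. Its mean was 106 ± 22.5 CPM in BCs, 104 ± 23.5 in RGCs, 90.7 ± 31.9 in HCs and 87.3 ± 14.1 in ACs. BCs and RGCs differed by 0.03 ± 0.24 on the log2 scale, with BCs higher in 7 of 15 retinas (adjusted p = 0.668, exact sign-flip permutation test). With the classes ordered by their mean log2(CPM + 1), the step from ACs to Müller cells, at 63.1 ± 19.1 CPM, was the 1 step between neighbours that passed, with a log2 difference of 0.52 ± 0.54 (higher in 13 of 15 retinas, adjusted p = 0.00231, exact sign-flip permutation test). Microglia, astrocytes, rods and cones lay at 63.9, 57.7, 58.9 and 52.0 CPM, and no neighbours among them differed beyond their spread. The BC minus RGC difference was thus 1.78 ± 0.18 for CA10 and 0.03 ± 0.24 for CA11 on the log2 scale.

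NRXN3 had its highest level in BCs, 15961 ± 1699 CPM (n = 15), with a lowest retina of 13350, a median of 15374 and a highest of 18821. Among the classes, ACs followed with 6326 ± 719 CPM and HCs with 5665 ± 1031, while nuclei without a class stood at 7127 ± 1433. Müller cells, the radial glia of the retina, had 3793 ± 683 CPM. BCs exceeded ACs by 1.33 ± 0.10 (log2) in all 15 retinas (adjusted p = 0.000188, exact sign-flip permutation test). ACs exceeded HCs by 0.18 ± 0.22 in 13 of 15 retinas (adjusted p = 0.00513), and HCs exceeded Müller cells by 0.58 ± 0.31 in 14 of 15 (adjusted p = 0.000293, exact sign-flip permutation tests). RGCs stood at the other end, at 1196 ± 490 CPM, and did not differ detectably from cones at 1267 ± 391 (log2 difference 0.12 ± 0.38, adjusted p = 0.308, exact sign-flip permutation test). Astrocytes at 2495 ± 747 CPM and microglia at 2575 ± 1196 did not differ detectably either (log2 difference 0.06 ± 0.83, adjusted p = 0.829, exact sign-flip permutation test). That comparison joins stages with opposite orders of the means. Infant retinas had 1598 ± 623 CPM in microglia and 2256 ± 357 in astrocytes, and senile retinas had 3727 ± 686 and 2607 ± 452.

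RGCs therefore ranked second of 9 classes for CA10, and for NRXN3 they shared the low end with cones. By mean the RGCs were the lower of these classes over all retinas, and the cones were the lower in version 7.0.1 (1441 CPM against 1475) and in Mature retinas (1235 CPM against 1455). Expressed as a percent of the BC level in the same retina, the RGC medians were 29.5% for CA10 and 6.65% for NRXN3. HCs showed the reverse order, with 10.7% for CA10 and 35.6% for NRXN3.

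NRXN2 was distributed otherwise, although only 33.5% of its UMIs lay in nuclei with a class, and nuclei without a class stood at 120 ± 47.7 CPM. The AC class holds only those nuclei that passed the marker limits. ACs, the inhibitory interneurons of the inner retina, had 144 ± 53.2 CPM, and RGCs had 90.9 ± 30.8. The difference of 0.65 ± 0.29 on the log2 scale was seen in 15 of 15 retinas (adjusted p = 0.000188, exact sign-flip permutation test). HCs had 81.1 CPM (from 33.5 to 176), microglia 61.0 ± 21.8, BCs 53.0 ± 19.2 and astrocytes 50.4 ± 22.3, and no neighbours in this stretch of the order differed beyond their spread. Astrocytes exceeded Müller cells, at 30.7 ± 15.7 CPM, in 12 of 15 retinas (adjusted p = 0.00919, exact sign-flip permutation test). Rods and cones had the lowest means, 28.6 and 13.7 CPM, which did not differ detectably from each other. The NRXN2 levels of microglia and rods rest on only 83 and 58 UMIs over all retinas. In BCs, the class with the most NRXN3, NRXN2 was lower than in ACs in 15 of 15 retinas (log2 difference -1.41 ± 0.20, adjusted p = 0.000188, exact sign-flip permutation test).

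NLGN1 was the 1 member of the 5 well-covered ones whose highest class was glial. Müller cells had 3333 ± 551 CPM (n = 15), with a lowest retina of 2537, a median of 3248 and a highest of 4197. Astrocytes had 2503 ± 524 CPM, BCs 2174 ± 210 and ACs 1814 ± 207. Müller cells exceeded astrocytes by 0.43 ± 0.39 (log2) in all 15 retinas (adjusted p = 0.000188, exact sign-flip permutation test). Astrocytes and BCs overlapped, with astrocytes higher in 12 of 15 retinas (log2 difference 0.17 ± 0.35, adjusted p = 0.118, exact sign-flip permutation test). BCs exceeded ACs by 0.26 ± 0.14, and ACs exceeded RGCs, at 1086 ± 118 CPM, by 0.74 ± 0.15, each in 15 of 15 retinas (both adjusted p = 0.000188, exact sign-flip permutation tests). HCs had 1028 ± 377 CPM, microglia 505 ± 179, rods 276 ± 141 and cones 150 ± 78.6. Cones were the lowest of the 9 classes by mean CPM for CA10, CA11, NRXN2 and NLGN1, but for CA11 and NRXN2 they did not differ detectably from rods.

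NLGN2, which is known for inhibitory synapses, and NLGN3 could hardly be measured. NLGN2 had 36 UMIs in RGCs, 39 in BCs and 27 in cones. NLGN3 had 26 UMIs in BCs, 20 in ACs and 18 in RGCs. No UMI of either was found in 698 microglia, which allows a share of nuclei with a UMI of up to 0.430%, and none of NLGN3 in 766 HCs, which allows 0.392%. These limits cover counting error only, while the shares below are means over retinas, and their ± values are SDs between retinas. GAD2, which inhibitory ACs are known for, was at 0 UMIs over all libraries, so a low total here does not show that the RNA was scarce. No fold change between classes is given for NLGN2 and NLGN3.

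Over the 36 pairs of classes, 34 differed for NRXN3, 34 for NLGN1, 29 for NRXN2 and 22 for CA11 at an adjusted p under 0.05 (exact sign-flip permutation tests over retinas, adjusted over 252 comparisons of 7 members). Over all 17234 features with at least 1000 UMIs, 47.3% of the pairs of a feature and 2 classes differed, so a difference between classes is common among genes. Adjusted over all of these, the counts were 33 for NRXN3, 34 for NLGN1, 29 for NRXN2 and 21 for CA11.

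Shares of nuclei were compared at equal depth. After every nucleus had been thinned to 1000 UMIs, 95.2% ± 2.72 of BCs carried at least 1 UMI of CA10 (n = 15), and the retinas ranged from 87.0% to 98.7%. The value was 58.1% ± 6.896 in RGCs, 23.2% ± 5.28 in ACs and 6.996% ± 4.31 in cones. Before thinning, the shares were 98.5% in BCs, 89.2% in RGCs, 40.6% in ACs and 21.8% in cones, where the median UMIs per nucleus were 2014, 6058, 2768 and 3516.5 in the middle retina. The gap between BCs and RGCs was thus wider at equal depth than before thinning. Thinning left out 1026 of 18776 BCs and 246 of 698 microglia, since they had fewer UMIs.

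For NRXN3 the thinned share was 99.9% ± 0.21 in BCs, 99.4% ± 0.55 in ACs, 97.4% ± 2.14 in HCs and 85.6% ± 3.66 in Müller cells. RGCs had 48.9% ± 11.1 and cones 29.0% ± 10.3, an order that the levels in CPM did not show. NLGN1 was found in 92.6% ± 2.14 of Müller cells, 84.3% ± 10.4 of astrocytes, 77.1% ± 4.27 of BCs and 74.1% ± 4.88 of ACs. Cones, at 8.30% ± 4.64, and rods, at 10.9% ± 5.20, had the lowest shares for NLGN1. CA11 and NRXN2 were too sparse for shares at this depth to be read, with at most 10.4% and 13.0% of the nuclei of any class.

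**Figure D2:**
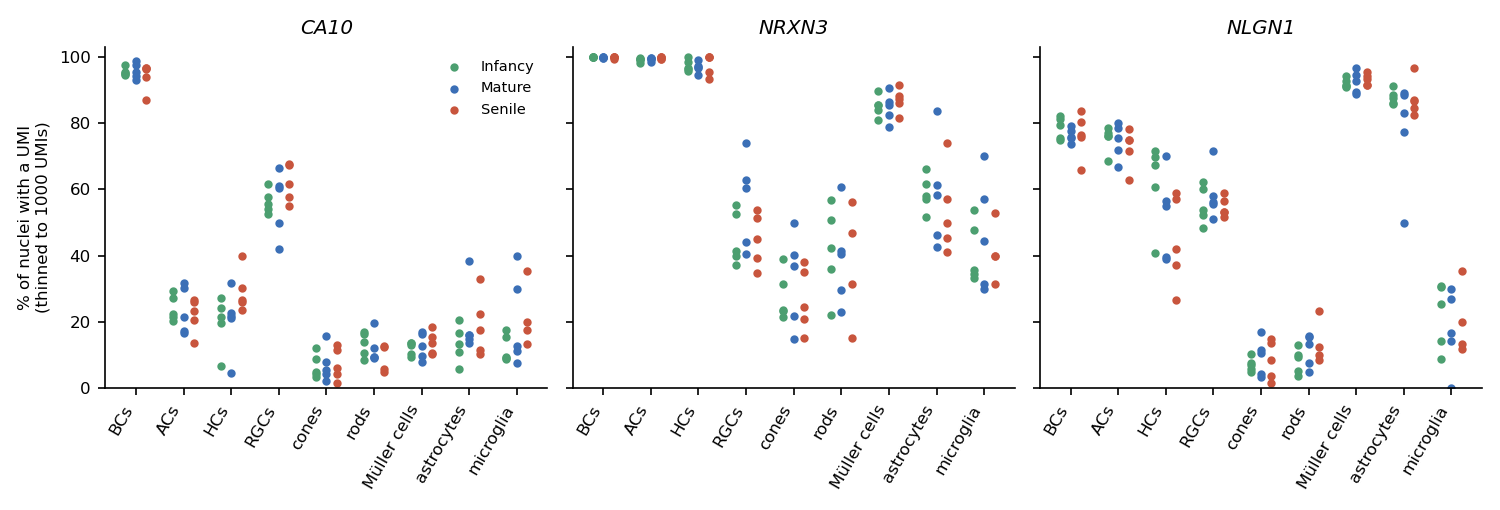
Percent of nuclei with at least 1 UMI of CA10, NRXN3 and NLGN1 in 9 classes after each nucleus was thinned to 1000 UMIs; each point is 1 retina with at least 10 such nuclei, coloured by stage. BCs have 95.2% for CA10 and RGCs 58.1%, NRXN3 is near its maximum in BCs, ACs and HCs, and Müller cells have 92.6% for NLGN1.

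BCs fall into ON cells, which depolarise to light through the receptor GRM6, and OFF cells, which use ionotropic receptors such as GRIK1. With at least 2 UMIs of ISL1, GRM6 and TRPM1 and a low GRIK1 rate, 6632 BCs were called ON. With no UMI of those genes and a high GRIK1 rate, 5914 were called OFF. BCs that met neither rule were left out of both sets. GRM6, TRPM1 and GRIK1 were themselves BC gate markers, so the sets could pass the gate through different markers. The effect of this on the differences below was not tested. The median UMIs per nucleus of the middle retina were 2141.5 in ON and 1912 in OFF BCs. NRXN3 was lower in ON BCs, at 13694 ± 1591 CPM, than in OFF BCs, at 19999 ± 1998. NLGN1 was also lower in ON BCs, at 1858 ± 193 CPM, than in OFF BCs, at 2926 ± 249. The ON values of NLGN1, from 1546 to 2293 CPM, did not reach the OFF values, from 2562 to 3296.

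The ON minus OFF differences were -0.55 ± 0.07 for NRXN3 and -0.66 ± 0.14 for NLGN1 on the log2 scale, each in the same direction in 15 of 15 retinas (both adjusted p = 0.000142, exact sign-flip permutation tests over 7 members). CA10 differed by much less, with -0.15 ± 0.09, but ON BCs were lower in 15 of 15 retinas (adjusted p = 0.000142, exact sign-flip permutation test). CA11 went the other way, with 0.26 ± 0.30 and ON BCs higher in 12 of 15 retinas (adjusted p = 0.00801, exact sign-flip permutation test), but not within the 7 retinas of version 6.1.2, where the difference was 0.05. NRXN2 did not pass (log2 difference 0.05 ± 0.28, higher in 10 of 15 retinas, adjusted p = 0.530, exact sign-flip permutation test). With adjusted p-values under 0.05, 4 of 7 members differed between ON and OFF BCs. By the same test over all 17234 features with at least 1000 UMIs, and adjusted over them, 26.4% differed, CA10, CA11, NRXN3 and NLGN1 among them.

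Among ACs, 1578 nuclei with at least 2 UMIs of SLC6A9, the glycine transporter of glycinergic ACs, were set against 1988 AC nuclei without one. SLC6A9 was itself an AC gate marker, beside TFAP2A and TFAP2B, and the gate needed at least 2 markers. ACs without SLC6A9 thus had to show both TFAP2A and TFAP2B. The sets therefore passed different filters, and the effect of this on the differences below was not tested. GAD1 had 650 UMIs and GAD2 had 0 over all libraries, so GABAergic ACs could not be gated by their own markers. CA10 was at 764 ± 221 CPM in glycinergic ACs, with a lowest retina of 463, a median of 726 and a highest of 1115. In ACs without SLC6A9 it was at 177 ± 116 CPM, from 48.6 to 457, so the ranges did not overlap. The log2 difference was 2.35 ± 0.85 in 15 of 15 retinas (adjusted p = 0.000214, exact sign-flip permutation test). Its size varied with the Cell Ranger version. In version 6.1.2 the means were 643 CPM in glycinergic ACs and 93.6 in ACs without SLC6A9, and in version 7.0.1 they were 869 and 250. The BC gate markers stood at a median of 282 CPM in glycinergic ACs and 128 CPM in ACs without SLC6A9, or 1.89% and 0.666% of the BC level, while CA10 stood at 21.1% and 4.92%. The part of BC RNA in the CA10 difference was not tested.

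NLGN1 was also higher in glycinergic ACs, at 2091 ± 271 CPM against 1400 ± 228, with a log2 difference of 0.59 ± 0.24 in 15 of 15 retinas (adjusted p = 0.000214, exact sign-flip permutation test). NRXN3 differed by 0.17 ± 0.10 in 14 of 15 retinas, from 6017 ± 758 to 6754 ± 759 CPM (adjusted p = 0.000285, exact sign-flip permutation test). CA11 differed by 0.57 ± 0.54, with glycinergic ACs higher in 12 of 15 retinas (adjusted p = 0.00214, exact sign-flip permutation test). NRXN2 was lower in glycinergic ACs, with a log2 difference of -0.33 ± 0.27, and higher there in 1 of 15 retinas (adjusted p = 0.00128, exact sign-flip permutation test). All 5 members also passed when adjusted over the 17234 features, of which 12.8% differed between these AC sets. Within 1 Cell Ranger version the values were 0.58 for CA11 in version 6.1.2 (adjusted p = 0.109) and -0.35 for NRXN2 in version 7.0.1 (adjusted p = 0.0656, exact sign-flip permutation tests), where neither passed. Starburst ACs, the cholinergic cells of motion circuits, numbered 393 nuclei over all retinas. In the 12 retinas with at least 10 of them they had 138 ± 68.1 CPM of CA10, 6039 ± 565 of NRXN3 and 2607 ± 312 of NLGN1.

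**Figure D3:**
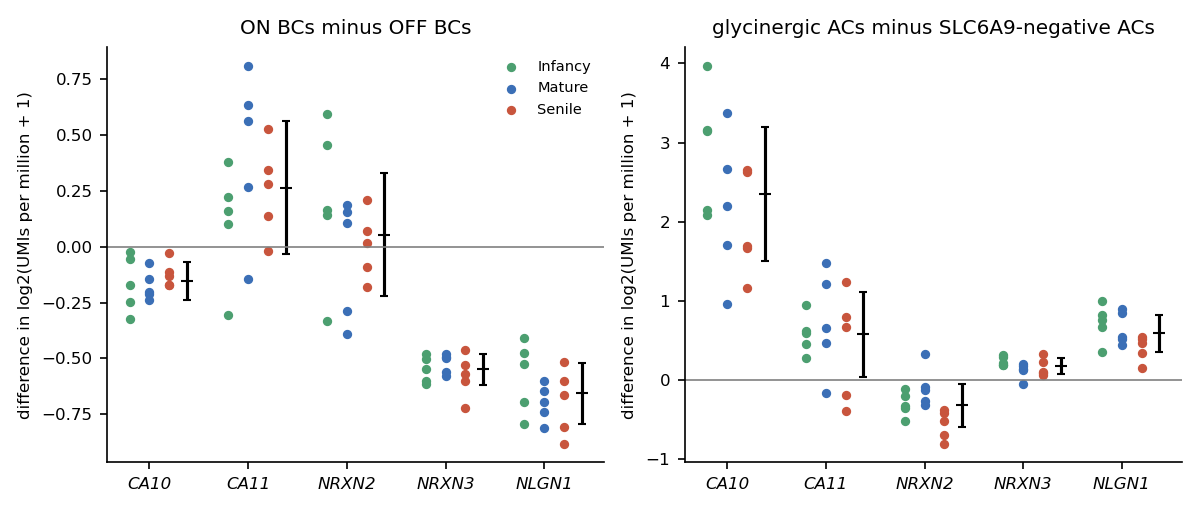
Difference in log2(CPM + 1) of 5 members between ON and OFF BCs (left) and between glycinergic ACs and ACs without SLC6A9 (right); each point is 1 retina, coloured by stage, and bars are the mean ± SD of 15 retinas. All NRXN3 and NLGN1 points lie below 0 on the left, and all CA10 and NLGN1 points lie above 0 on the right.

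The study followed the retina from infancy to old age, so the stages were compared within each class by edgeR's quasi-likelihood test on the UMIs summed per retina, with the Cell Ranger version as a covariate and adjustment over all genes of the class. Of 63 pairs of a member and a class, 41 had enough counts to be tested. NLGN2 and NLGN3 were tested in no class, and rods and microglia had 3 tested members each. In the senile against infant comparison 2 of 41 pairs passed, both in microglia. Over the 9 classes together 1.17% of all gene and class pairs passed, and in microglia 2.84% of the genes tested there. Over the 41 pairs the median log2 fold change was -0.03, and over all genes tested in BCs and in microglia it was -0.02 in each class. No member passed between mature and infant retinas, where 0.798% of all pairs did, or between senile and mature retinas, where 0.0113% did (edgeR and DESeq2 both called 0). At an unadjusted p under 0.05, edgeR gave 3 and 2 pairs in those comparisons.

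In BCs the level of CA10 was 3592 ± 492 CPM in Infancy, 3872 ± 564 in Mature and 3631 ± 527 in Senile retinas (n = 5 each). The infant values were 3367, 3152, 3398, 3622 and 4421 CPM, and the senile values were 3721, 3136, 3056, 4274 and 3969 CPM. The stages overlapped, and the senile against infant log2 fold change was -0.11 with an SE of 0.12 (edgeR adjusted p = 0.839). Fitted fold changes are scaled by TMM and account for the Cell Ranger version, so this one has the opposite sign to the difference of the mean CPM, and no direction is drawn from it. NRXN3 in BCs was 14995 ± 840 CPM in Infancy, 16297 ± 1645 in Mature and 16591 ± 2210 in Senile retinas, with a log2 fold change of 0.06 and an SE of 0.12 between senile and infant retinas (edgeR adjusted p = 0.950). NLGN1 in BCs was 2198 ± 153, 2151 ± 141 and 2174 ± 332 CPM in that order, with a log2 fold change of -0.10 and an SE of 0.12 (edgeR adjusted p = 0.860). In this comparison 1.41% of the genes tested in BCs passed. CA11 and NRXN2 in BCs had log2 fold changes of -0.31 with an SE of 0.18 and -0.21 with an SE of 0.21 (edgeR adjusted p = 0.592 and 0.823).

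In RGCs, CA10 changed by 0.05 with an SE of 0.15 and NLGN1 by -0.01 with an SE of 0.10 on the log2 scale from infant to senile retinas (edgeR adjusted p = 0.996 and 0.999), where 1.12% of the genes tested in RGCs passed. CA11 in RGCs had the lowest value there, -0.38 with an SE of 0.16 (edgeR adjusted p = 0.665). Outside microglia the log2 fold changes of all members in this comparison lay between -0.84 and 0.90, with a smallest edgeR adjusted p of 0.363. The value of -0.84 was NLGN1 in HCs, which passed only when low counts were not filtered (log2 fold change -0.93, edgeR adjusted p = 0.0311). The distance between BCs and other classes was also compared between 5 senile and 5 infant retinas. None of 28 differences passed, and 2 had an unadjusted p under 0.05 in the exact permutation test. With 5 against 5 retinas the smallest exact p is 0.007937, which passes the adjustment over 28 only where several differences reach it, so these tests could hardly give a call. The smallest p, 0.0159, belonged to NRXN2, whose BC minus AC difference was -1.58 ± 0.14 in senile and -1.29 ± 0.16 in infant retinas (adjusted p = 0.333, exact permutation test).

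Microglia, the resident immune cells, were the exception. CA10 there was at 41.9, 213, 172, 58.5 and 284 CPM in the infant retinas and at 439, 676, 459, 852 and 642 CPM in the senile retinas, with no overlap. These levels rest on 3 to 48 UMIs in the infant and 16 to 123 UMIs in the senile retinas. The log2 fold change was 1.93 with an SE of 0.40 (edgeR adjusted p = 0.0193). NRXN3 was at 1325, 2377, 1669, 719 and 1901 CPM in the infant and at 4135, 4055, 2962, 4457 and 3025 CPM in the senile retinas, again with no overlap, and the log2 fold change was 1.28 with an SE of 0.32 (edgeR adjusted p = 0.0427). The mature retinas, from 284 to 576 CPM of CA10, overlapped with both stages at the edges. NLGN1 in microglia had a log2 fold change of 0.68 with an SE of 0.35 (edgeR adjusted p = 0.320). In this comparison 2.84% of the 1759 genes tested in microglia passed.

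Marker lists of other classes were also measured in microglia. The cone marker list ranged from 107 to 343 CPM in infant and from 183 to 559 CPM in senile microglia. The BC marker list ranged from 138 to 379 CPM in infant and from 210 to 782 CPM in senile microglia, with medians of 1.40% and 1.63% of the BC level, while CA10 had medians of 5.06% and 16.2%. The microglial marker list itself ranged from 3938 to 8119 CPM in infant and from 2754 to 7054 CPM in senile retinas. The part of RNA from other cells in the microglial result was not tested.

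With the doublet-like nuclei kept, the log2 fold change fell to 1.03 for CA10 and to 0.66 for NRXN3, and neither passed (edgeR adjusted p = 0.227 for both). With classes taken from clusters the values were 2.00 and 1.22 (edgeR adjusted p = 0.0503 and 0.0971). NRXN3 also did not pass without the Cell Ranger term (log2 fold change 1.17, edgeR adjusted p = 0.108) or in retinas with at least 30 microglia (1.28, edgeR adjusted p = 0.0552). CA10 did not pass without Infancy 4 (log2 fold change 1.67, edgeR adjusted p = 0.0743), and NRXN3 did not pass without any 1 of 11 retinas (Infancy 1, 3, 4 and 5, Mature 2 and 3, and all 5 Senile), at log2 fold changes from 1.09 to 1.47 and edgeR adjusted p-values from 0.0513 to 0.152.

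**Figure D4:**
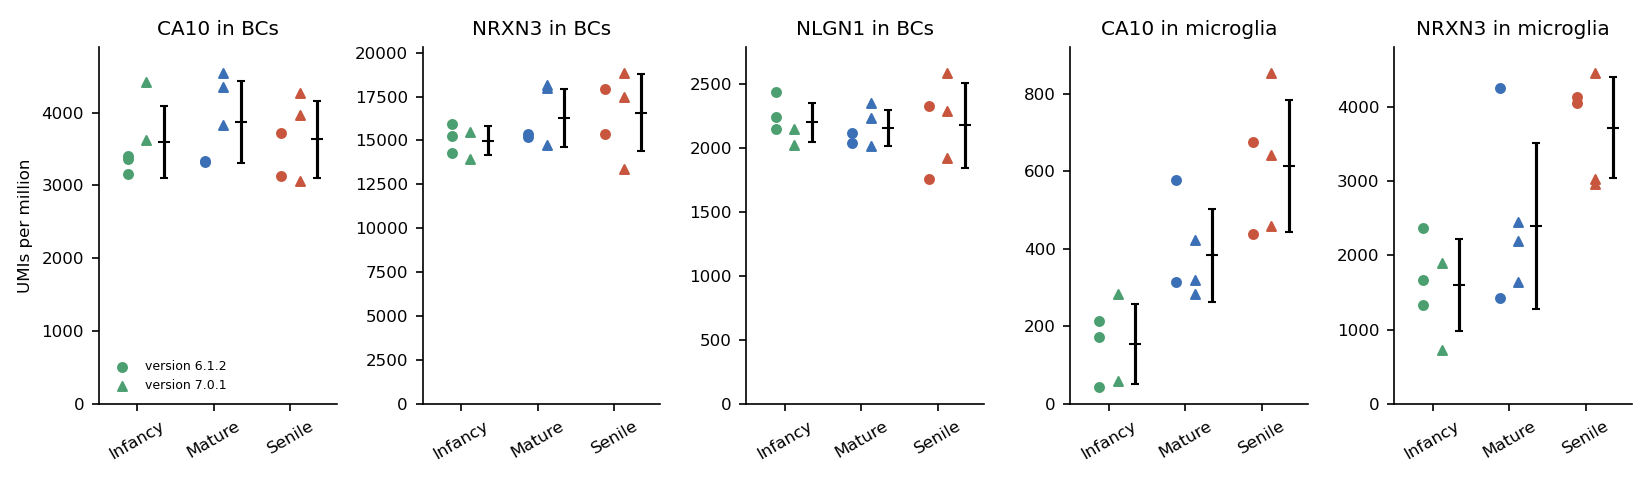
Levels in CPM of CA10, NRXN3 and NLGN1 in BCs and of CA10 and NRXN3 in microglia, by stage; each point is 1 retina (circles for Cell Ranger version 6.1.2, triangles for 7.0.1), and bars are the mean ± SD of 5 retinas. The stages overlap in BCs, while the 5 senile microglia values, 439 to 852 for CA10, lie above the 5 infant values, 41.9 to 284.

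The genes around the members were followed as a list of 37 genes. It held ligands, partners and scaffolds of neurexins and neuroligins, and also CA8, another relative of the carbonic anhydrases. All are called listed genes or listed partners below. LIN7B was not among the features and DLG4 had 0 UMIs, and 33 genes had at least 1000 UMIs over all libraries. Of these 33, 12 had their highest mean level in ACs, 6 in BCs, 3 each in HCs, RGCs, Müller cells and astrocytes, 2 in rods and 1 in microglia. The following examples were chosen after their values were seen. CBLN1, a secreted synaptic organiser that binds neurexins, was at 90.1 ± 41.8 CPM in ACs and at 7.31 ± 11.6 in the next class. IGSF21, a neurexin ligand of inhibitory synapses, was at 244 ± 63.6 CPM in BCs and at 54.9 ± 52.7 in the next class. MDGA2, which binds neuroligins and keeps neurexins off them, was highest in Müller cells at 5459 ± 999 CPM, followed by BCs at 4569 ± 581.

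Over the 9 classes 213 pairs of a listed gene and a class were tested, and 3 passed between senile and infant retinas, all higher in senile, a count near the background of 1.17% of all gene and class pairs. MAGI2, a scaffold protein measured here through its most abundant copy, rose in rods with a log2 fold change of 1.32 and an SE of 0.28 (edgeR adjusted p = 0.0349, where 0.634% of the genes tested in rods passed). In microglia DLG2, a scaffold protein of synapses, rose by 1.30 with an SE of 0.28 on the log2 scale (edgeR adjusted p = 0.0223). Of the 12 listed genes tested in microglia 2 passed, next to 2.84% of all genes tested there, and the median log2 fold change of the 12 was 1.02, against -0.02 over all genes tested there. None passed between mature and infant or between senile and mature retinas by edgeR, where 17 and 14 pairs had an unadjusted p under 0.05.

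The libraries were also compared by the Cell Ranger version in the file header. Of the 41 tested pairs, 8 passed between 7 retinas of version 6.1.2 and 8 of version 7.0.1 in the same edgeR fits, next to 20.6% of all gene and class pairs. The members' count was thus close to the background. What else differed between these libraries cannot be told apart from the version. NRXN2 was lower in version 7.0.1 in BCs, HCs, ACs, RGCs and Müller cells, with log2 differences of -0.80, -0.68, -0.93, -0.80 and -1.15 (edgeR adjusted p from 0.000248 to 0.0438). In these classes 23.1%, 12.8%, 22.1%, 24.2% and 17.4% of the tested genes passed.

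In ACs NRXN2 was at 188 ± 31.6 CPM (n = 7) in version 6.1.2, from 138 to 245, and at 105 ± 34.0 CPM (n = 8) in version 7.0.1, from 81.3 to 187. The highest value of version 7.0.1 was Senile 3, at 187 CPM, and the next highest was 109 CPM. CA10 and NLGN1 moved the other way in cones, by 1.44 with an SE of 0.32 and by 1.31 with an SE of 0.28 (edgeR adjusted p = 0.00526 and 0.00420, where 26.6% of the genes tested in cones passed). CA10 in cones lay between 27.9 and 98.1 CPM in version 6.1.2 and between 112 and 332 CPM in version 7.0.1. NRXN3 was higher in RGCs of version 7.0.1 by 0.64 with an SE of 0.18 (edgeR adjusted p = 0.0150).

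Of the 37 listed partners, 5 pairs with a class were higher and 42 lower in version 7.0.1 among 213 tested. Only their total is near the background of 20.6%, which counts both directions. In ACs 22.1% of all 11063 tested genes passed, 1038 higher and 1403 lower. Of 31 partners there, 12 were lower and none higher. The log2 differences were -2.54 for C1QL3, -2.09 for C1QL2, -1.98 for C1QL1 and -1.67 for CBLN2 (edgeR adjusted p at most 0.000482). In BCs 23.1% of all 15201 tested genes passed, 1909 higher and 1608 lower. Of 31 partners there, 11 were lower and APBA1 was higher. The log2 differences there were -2.28 for NXPH4, -1.86 for CBLN2, -1.73 for C1QL3 and -1.43 for C1QL1 (edgeR adjusted p from 0.000450 to 0.0188). The median log2 difference of the tested partners was -0.25 in both classes, against 0.03 over all genes tested in BCs and 0.01 in ACs.

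**Figure D5:**
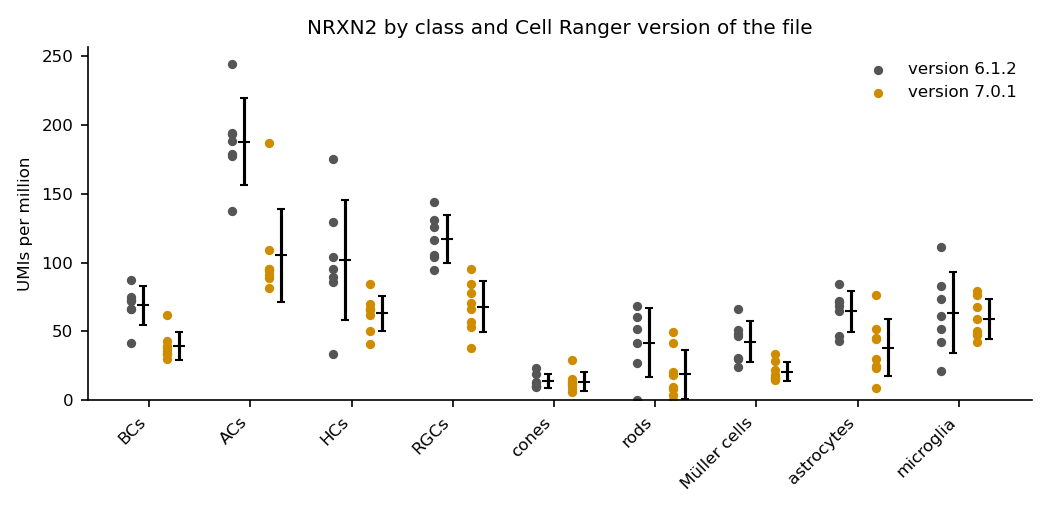
Levels in CPM of NRXN2 in 9 classes for 7 retinas whose files name Cell Ranger 6.1.2 (grey) and 8 that name 7.0.1 (ochre); each point is 1 retina and bars are the mean ± SD. ACs have the highest mean in both sets, 188 and 105, and the point of version 7.0.1 at 187 in ACs is Senile 3.

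The genes whose levels were most like those of a member were found by Pearson's r of log2(CPM + 1) over 134 sums of a class in a retina, among 8794 named genes. By rule the gate markers were no candidates, so no marker that defined a class could appear. Numbered copies, antisense and unnamed features and genes with a low mean level were left out too. These sums share libraries, depth and class, and the values are descriptions with no test. For CA10 they were FGF12, an intracellular modulator of sodium channels, with r = 0.919, KHDRBS3, an RNA-binding protein, with 0.849, DOK6 with 0.836, LRRN1 with 0.832 and KCNMA1, a potassium channel, with 0.830. For NRXN3 they were the adhesion molecule CNTN4 with 0.855, ADARB2 with 0.838, PLCB4 with 0.796, SLC4A10 with 0.754 and ZNF385B with 0.753. For NLGN1 they were the adhesion molecule CNTN1 with 0.912, CTNNA2 with 0.905, PAK3 with 0.887, SORCS2 with 0.884 and PTPRD, a receptor phosphatase, with 0.878.

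CA11 was followed less closely by any candidate, with KCTD8 at 0.656, SCN3A at 0.629 and ROBO2 at 0.579. NRXN2 was followed by ZNF385D at 0.753, ENOX1 at 0.749 and JAKMIP2 at 0.748. The best values were 0.386 for NLGN2 (MACROD2, GAP43 and VEZT) and 0.413 for NLGN3 (PLPP4, CCDC122 and OPRM1), which at their low counts are no finding. Among the members themselves, r was 0.620 between CA10 and NRXN3, 0.589 between NRXN3 and NLGN1, 0.561 between CA10 and NLGN1, 0.448 between CA10 and CA11 and 0.305 between NRXN2 and NRXN3.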

How the data were processed

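Nuclei of 15 retinas had been profiled with the 10x Genomics 3' chemistry. The authors ran Cell Ranger on the TS_3.0 assembly, and the deposited matrices hold whole UMI counts without normalization. The processing notes of the submitters name versions 5.0.1 and 7.0.1, and the file headers 6.1.2 and 7.0.1. Whether intron reads were counted is not given in the sources used here, and the default differs between versions, which affects long genes most. The members and all lists, classes and tests were chosen with earlier results of these data known.

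Of 120437 barcodes, 119765 had over 200 genes, less than 6000 genes and a mitochondrial share below 5%, and these were used. A nucleus received a class when the summed Poisson excess of that class's markers (k ln(k/E) - (k - E) for k UMIs above the expectation E from the nucleus total) was at least 3, exceeded every other class by at least 3 and rested on at least 2 markers. This scoring rule was chosen after seeing the data, and 7.09% of assigned nuclei lay near the limit. Markers with under 1000 UMIs in total were left out. Nuclei in which more than 1 class reached the score were treated as doublets (4.61%), and no simulated-doublet caller was run. UMIs were summed per class and retina. Class differences in log2(CPM + 1) were tested over retinas by 2-sided exact sign-flip permutation, with a pseudocount of 1 and Benjamini-Hochberg adjustment. With 15 retinas the smallest p is 6.1e-05. The same test was run over all features with at least 1000 UMIs except the gate markers. Stages were compared with edgeR 4.0.16 (R 4.3.3; TMM, filterByExpr, glmQLFTest) on stage and Cell Ranger version, with DESeq2 1.42.0 as an alternative, and SEs are the log2 fold change divided by the root of F. A copy of a marker or partner with the most UMIs stood for its gene. The planned split of ACs into GABAergic and glycinergic nuclei was replaced by SLC6A9 alone. By rule the 7 members are named in all classes, and of listed partners past a test the 4 with the largest change per class; for the Cell Ranger comparison partners are named in BCs and ACs alone. Scripts were tested on simulated data. Other steps used Python 3.11.15, numpy 2.4.6, scipy 1.17.1, scikit-learn 1.9.0 and igraph 0.11.9. The 13429873 to 58734300 UMIs per retina limit what can be seen for NLGN2 and NLGN3. No sequences are shown, and the values of some listed genes are not reported here.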

Additional observations from a re-analysis of the deposited data

Results flagged for a closer look

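Among 135 sets of 4 or 5 retinas of 1 stage, 1 class and 1 of 5 members, 5 held a retina that stood apart from the others of its set by Dixon's criterion, and chance gives about 1 in 20. CA10 in rods was at 599 CPM in Senile 4, against 224 to 287 CPM in the other senile retinas, with 54 rod nuclei in that retina. CA11 in RGCs was at 61.5 CPM in Senile 1, against 92.9 to 101 CPM in the others. CA11 in astrocytes was at 68.9 CPM in Infancy 5, against 49.3 to 53.3 CPM in the others. NRXN2 in cones was at 29.0 CPM in Senile 3, against 9.02 to 12.5 CPM in the others, the retina that also had the highest AC value of NRXN2 within version 7.0.1. NRXN2 in microglia was at 112 CPM in Infancy 1, against 50.2 to 61.0 CPM in the others, with 66 microglia in that retina. That value rests on 8 UMIs, and those of the other infant retinas on 3 to 10 UMIs.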

How the results depend on the processing

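The count of members called between senile and infant retinas was 2 and moved to 1 without the Cell Ranger term, with the replicate block and with at least 30 nuclei, and to 0 with classes by cluster majority and with doublets kept; without a filter on low counts it was 3, with NLGN1 in HCs added, and leaving out 1 retina gave 0 to 2. Between senile and mature retinas it went from 0 to 1 (NRXN3 in RGCs) without a filter on low counts, and between mature and infant retinas it stayed at 0 in all settings run. The cause was not tested. The number of gene and class pairs that entered differed by setting. It was 79724 for edgeR and for DESeq2, 367561 without a filter, 75876 without the version term and 104165 with the replicate block. Of these, 935 were called between senile and infant retinas by edgeR, 1478 by DESeq2 and 3392 without a filter. For mature against infant retinas the calls were 636, 1280 and 3287, and for senile against mature 9, 273 and 1549. Without the version term the calls in the same order of comparisons were 622, 375 and 2, and with the replicate block 761, 426 and 1. Same-numbered retinas of different stages correlated above 0.1 in 13 of 15 pairs and 3 of 15 retinas correlated best with their own number, so the numbers were not taken as pairs; under the block NRXN3 in microglia had an edgeR adjusted p of 0.107, and the stage difference of the class difference stayed at 0 of 28, where 5 pairs cannot give an exact p under 0.0625. The pairs of classes that differed numbered 165 of 252 (142 of 180 without NLGN2 and NLGN3, next to 47.3% over all features). Both counts hold 23 pairs of CA10, to whose order no p-value is attached. The pairs that differed numbered 96 in the 7 retinas of version 6.1.2 and 131 in the 8 of version 7.0.1, where fewer retinas enter. What else sets these counts was not tested. CA10 in BCs kept a log2 distance of 1.74 to 1.80 when 1 retina was left out. Between ON and OFF BCs 4 or 5 members differed, and 5 between the AC sets, when 1 retina was left out, where 26.4% and 12.8% of all features differed with every retina in. Limits are the 10 to 72 microglia per retina and the 260 and 221 UMIs of NLGN2 and NLGN3.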
